A study of Homo sapiens with 6 samples.

Results

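The 5 growth factor genes AREG, EREG, HBEGF, TGFA and NRG1, the receptor genes EGFR, ERBB2 and ERBB3, and ERRFI1, which encodes an inhibitor of these receptors, were examined in human lung fibroblasts after silencing of TAZ. They were taken by symbol from the deposited count table, where they are 9 of 23355 genes with a symbol. Of these 9 genes, 8 passed the filter on low counts, among 14053 genes tested. TGFA did not pass. The set was put together as a family and selected on the rise of AREG after TAZ silencing in these libraries, that is, on the AREG counts with either TAZ siRNA against the control siRNA. The levels of AREG against the control siRNA are therefore given as a description, without a test.

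HFL-1 cells, an established line of fibroblasts from human fetal lung, received a non-targeting control siRNA (siNTC), siTAZ #1 or siTAZ #2. The 2 TAZ siRNAs target the same transcript, all 3 groups were transfected with the same lipid reagent, and total RNA was taken 48 h later for sequencing on an Ion Proton. Each group holds 2 libraries, described as biological replicates, and no untransfected cells were analysed here. All results come from this 1 line, and p-values measure only the spread between these libraries.

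The ligands of this family are made as membrane-anchored precursors and are released by metalloproteases of the ADAM family. Amphiregulin (AREG) and TGF-α (TGFA) bind the EGF receptor (EGFR), epiregulin (EREG) and HB-EGF (HBEGF) bind EGFR and ERBB4, and neuregulin 1 (NRG1) binds ERBB3 and ERBB4. Ligand binding pairs the receptors with each other or with ERBB2, which has no known ligand, and the RAS and ERK pathway then switches on transcripts that include its own inhibitors. In the lung, fibroblasts are a source of such ligands for the neighbouring epithelium, and AREG is known as a target gene of YAP, the close relative of TAZ, in other cells.

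AREG and EREG lie near each other on the same strand of chromosome 4 (GRCh37, chr4:75310853-75320722 for AREG and chr4:75230862-75254466 for EREG), and HBEGF lies on the minus strand of chromosome 5 (chr5:139712428-139726188). The 250 bases before their RefSeq start sites are shown because these 3 ligand genes had the highest levels among the ligands per kilobase of exon in every group. Bases in capitals match a motif that was searched on both strands, namely the core of TEAD sites, through which TAZ and YAP bind DNA (GGAATG), the AP-1 motif (TGANTCA) or the cAMP response element (TGACGTCA). The sequences, from a RefSeq table on GRCh38.p14, were placed on GRCh37 by exact match and run 5′ to 3′ in the direction of transcription.
AREG, chr4:75310603-75310852, plus strand: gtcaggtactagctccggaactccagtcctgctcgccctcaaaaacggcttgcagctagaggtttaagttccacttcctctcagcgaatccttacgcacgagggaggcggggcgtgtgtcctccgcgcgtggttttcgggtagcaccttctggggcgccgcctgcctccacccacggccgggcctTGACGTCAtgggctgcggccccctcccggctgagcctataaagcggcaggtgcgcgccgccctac
EREG, chr4:75230612-75230861, plus strand: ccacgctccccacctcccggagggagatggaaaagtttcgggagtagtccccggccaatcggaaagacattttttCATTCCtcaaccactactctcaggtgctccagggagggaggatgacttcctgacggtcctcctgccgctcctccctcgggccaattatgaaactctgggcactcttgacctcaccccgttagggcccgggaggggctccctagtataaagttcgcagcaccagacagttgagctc
HBEGF, chr5:139726189-139726438, minus strand: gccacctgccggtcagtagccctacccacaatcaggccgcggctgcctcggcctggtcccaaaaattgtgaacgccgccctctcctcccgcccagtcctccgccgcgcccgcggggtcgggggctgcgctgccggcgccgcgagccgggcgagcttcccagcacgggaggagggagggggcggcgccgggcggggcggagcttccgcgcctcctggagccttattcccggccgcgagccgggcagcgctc

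The AREG window held 1 match to the cAMP response element, which began 65 bases before the start site, and 1.65% of the 35116 RefSeq promoter windows of the same length held such a match. The EREG window held 1 TEAD match on the reverse strand, which began 175 bases before the start site, and 11.9% of all windows held one. The HBEGF window held no match to the 3 motifs. Of the 7 members with a RefSeq promoter, TGFA and ERRFI1 also held none, ERBB2 held an AP-1 match (6.57% of all windows) and 1 of the windows of EGFR held TEAD and AP-1 matches. A match is a run of letters and not a measured binding site.

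The deposited read counts summed to between 15648055 and 32078188 per library. WWTR1, which encodes TAZ, fell with both siRNAs, by 2.26 on the log2 scale with siTAZ #1 (SE 0.10, FDR 0.000617) and by 1.56 with siTAZ #2 (SE 0.10, FDR 0.000681). YAP1 rose by 0.64 (SE 0.14, FDR 0.0295) and 0.54 (SE 0.14, FDR 0.0391), calls that were lost in 4 and 5 of the 18 alternative analyses, on leaving out either siNTC library among others. All 9 fibroblast markers were expressed, while 4 of 7 epithelial, 3 of 4 endothelial and 3 of 4 immune markers were under 1 CPM in every library. The summed fibroblast markers were lower with siTAZ #1 (23174 to 24049 CPM) and siTAZ #2 (27180 to 28939) than with siNTC (34878 to 34966). The summed epithelial markers were at 44.9 to 45.1 CPM with siNTC, 40.2 to 47.8 with siTAZ #1 and 58.9 to 64.5 with siTAZ #2, and the summed immune markers at 74.1 to 75.3, 69.1 to 75.7 and 38.2 to 49.0. The immune sum came nearly all from 1 gene, with a mean of 63.2 CPM over the 6 libraries. In the epithelial sum, the highest gene had a mean of 38.7 CPM. The summed endothelial markers were at 0.888 to 1.58, 2.12 to 2.52 and 2.06 to 3.50 CPM. The part of these markers in the results was not tested. In the library of siTAZ #1 replicate 2, counts were nearly missing for the stretch of the genome that begins at RANGAP1 and ends with chromosome Y. None of the 9 members lies there. Of the pathway genes described further on, only ARAF does. In bulk RNA, a change in the share of cells that make a transcript and a change in its level per cell cannot be told apart.

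AREG counts were low in control cells and high with siTAZ #1. In CPM, which are counts scaled to the size of the library after TMM normalization, AREG was at 5.71 and 3.22 in the siNTC libraries, at 159 and 177 with siTAZ #1, and at 13.7 and 35.8 with siTAZ #2. Every siTAZ library lay above both siNTC libraries, the siTAZ #1 libraries were highest, and the siTAZ #2 libraries differed from each other by more than those of any other group. The fitted log2 fold change against siNTC was 5.23 with siTAZ #1, a 37.6-fold difference, and 2.47 with siTAZ #2, a 5.54-fold difference. Over the 18 alternatives these values ranged from 4.87 to 5.69 and from 1.60 to 3.001, and the value of 1.60 came from leaving out siTAZ #2 replicate 2. The siTAZ counts of AREG entered the choice of the genes, so a test between the siRNAs is not independent of that choice. The siRNAs differed from each other, with AREG 6.79-fold higher with siTAZ #1 than with siTAZ #2 (log2 difference 2.76, SE 0.49, FDR 0.0104). Over the 18 alternatives the log2 difference ranged from 2.23 to 3.62. Refitting the same counts does not make the test independent of the choice of the genes. GRCh37 carries a near-identical copy, AREGB (chr4:75480629-75490486), which has no entry in the table, and 1035 of the 1135 windows of 100 bases in the AREG transcript (91.2%) also occur in it. The 250 bases before AREG likewise occur at a second place, chr4:75480379-75480628. Reads from either gene, or reads lost because they fit both, cannot be told apart in these counts.

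EREG rose with siTAZ #1 and not detectably with siTAZ #2. EREG stood at 26.4 and 18.4 CPM with siNTC, at 133 and 176 with siTAZ #1, and at 15.8 and 21.4 with siTAZ #2. The siTAZ #1 libraries lay above all others, and those of siNTC and siTAZ #2 overlapped. The increase with siTAZ #1 was 6.90-fold (log2 fold change 2.79, SE 0.26, FDR 0.00231). With siTAZ #2 the log2 fold change was -0.27 (95% interval -0.88 to 0.34, FDR 0.459). The difference between the siRNAs was 3.06 on the log2 scale (SE 0.26, FDR 0.00134), and these calls were the same in all 18 alternatives.

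NRG1 also rose with siTAZ #1, by less than EREG in fold. Its levels were 9.19 and 10.9 CPM with siNTC, 28.5 and 32.1 with siTAZ #1, and 10.2 and 11.4 with siTAZ #2. Both siTAZ #1 libraries were above the other 4, and the siNTC and siTAZ #2 libraries overlapped. The rise with siTAZ #1 was 3.02-fold (log2 fold change 1.60, SE 0.17, FDR 0.00363). With siTAZ #2 the log2 fold change was 0.10 (95% interval -0.32 to 0.53, FDR 0.699), and its sign changed in 2 of the leave-one-out fits. The siRNAs differed by 1.49 on the log2 scale (SE 0.17, FDR 0.00289), a call kept in all 18 alternatives.

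HBEGF showed the opposite order of the siRNAs. It was at 7.16 and 9.28 CPM with siNTC, at 12.6 and 14.6 with siTAZ #1, and at 20.5 and 20.1 with siTAZ #2. The 3 groups did not overlap, with siNTC lowest and siTAZ #2 highest. HBEGF rose 2.47-fold with siTAZ #2 (log2 fold change 1.30, SE 0.20, FDR 0.00667), and this call was lost only without siNTC replicate 1 (FDR 0.0518). With siTAZ #1 the log2 fold change was 0.73 (SE 0.20), just outside the threshold (FDR 0.0503), and 6 of the 18 alternatives placed it inside. The difference between the siRNAs was -0.57 (95% interval -1.05 to -0.10, FDR 0.0762) and passed the threshold in 3 alternatives, among them the fit that left out the stretch from RANGAP1 through chromosome Y (FDR 0.0317).

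TGFA was close to absent. The table lists 1 and 1 counts with siNTC, 4 and 5 with siTAZ #1, and 1 and 1 with siTAZ #2. Pooled over the libraries of a group, this is 0.0633 CPM with siNTC (95% exact Poisson interval 0.00766 to 0.228) and 0.187 with siTAZ #1 (0.0856 to 0.355), and the intervals, which cover counting error only, overlap. No difference was detectable at this depth.

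**Figure D1:**
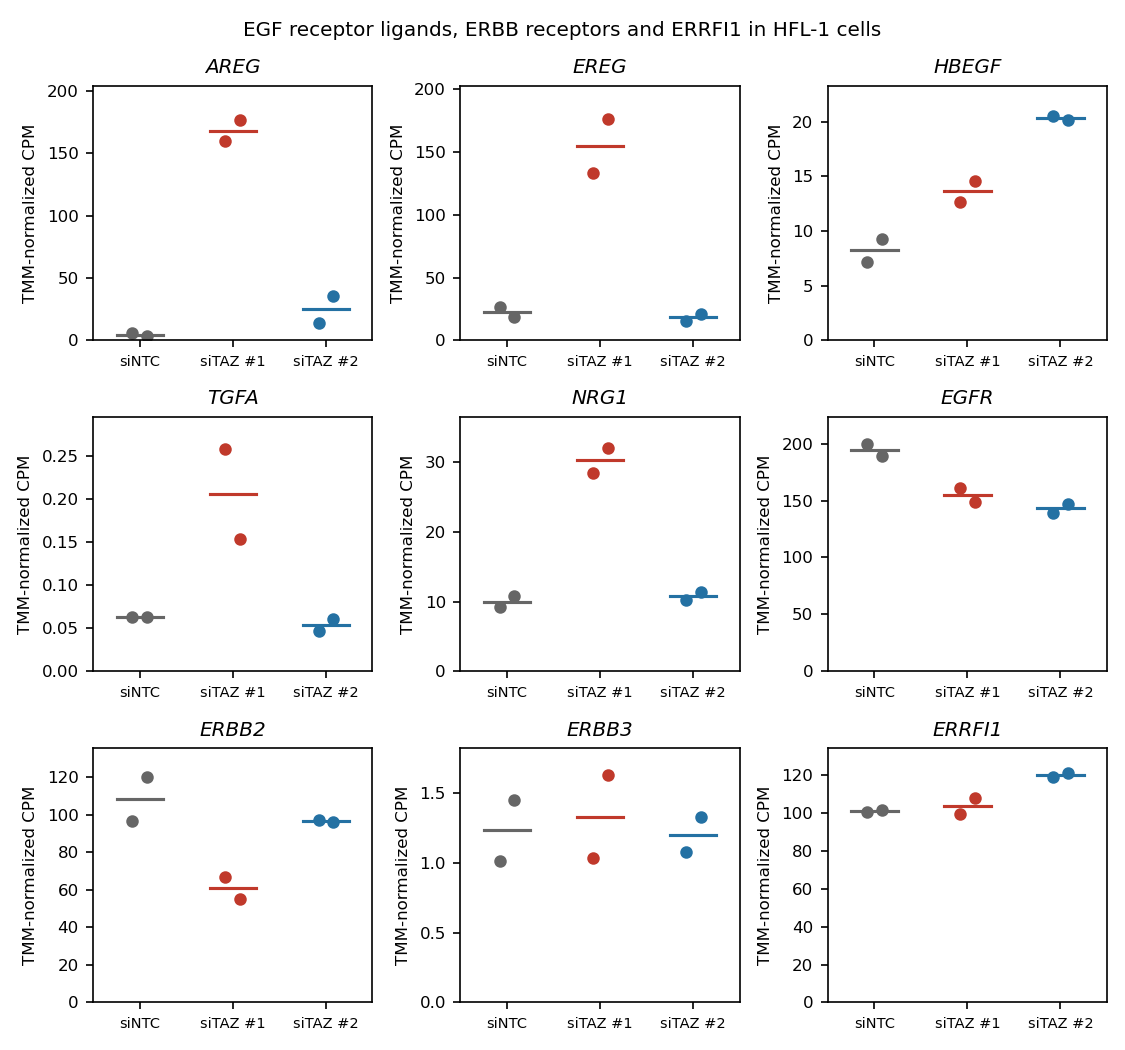
TMM-normalized CPM (y axis, linear from 0, scaled for each gene) of the 9 genes by siRNA group (x axis). Each point is 1 library and each bar the mean of 2 libraries. AREG, EREG and NRG1 were highest with siTAZ #1, HBEGF was highest with siTAZ #2, and EGFR was below both siNTC libraries with either siRNA.

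Levels of different genes were compared as CPM per kilobase of annotated exon. The 5 ligands together summed to 9.87 ± 1.51 CPM per kilobase with siNTC (SD, n = 2), 135 ± 13.3 with siTAZ #1 and 25.7 ± 10.1 with siTAZ #2. EREG had the largest share in both control libraries, with 42.3% and 36.6% of that sum. AREG followed in siNTC replicate 1 at 31.8%, and HBEGF was close behind in siNTC replicate 2 at 35.2%. With siTAZ #1, AREG made up 77.0% and 74.3% of it and EREG 18.5% and 21.3%. With siTAZ #2, AREG made up 45.3% and 66.5% and HBEGF 37.1% and 20.5%. The AREG part of these values was used in choosing the genes and was not tested. It is also uncertain because of the reads shared with AREGB, and so are the shares of the other ligands. NRG1 took between 1.04% and 5.77% of the sum, a share that rests on a long exon annotation of 21372 bases.

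**Figure D2:**
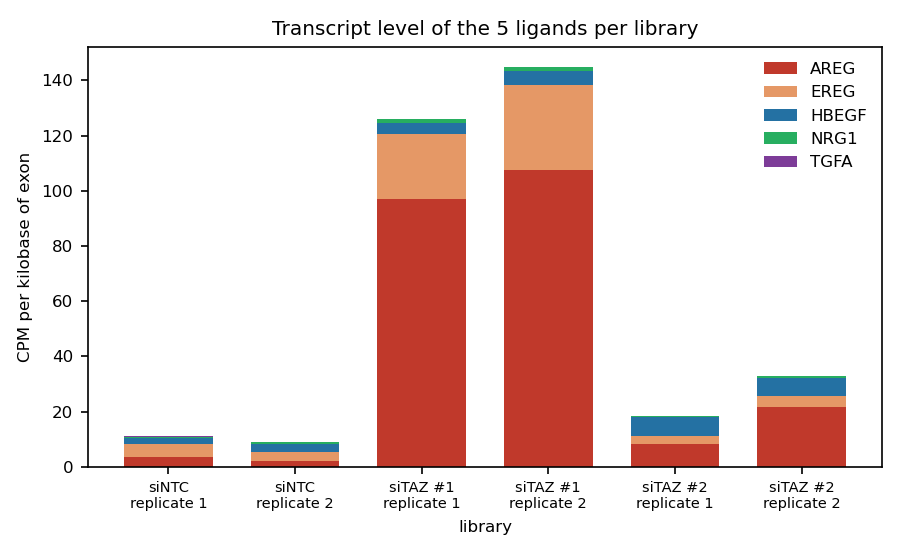
CPM per kilobase of exon (y axis, linear from 0) of AREG, EREG, HBEGF, NRG1 and TGFA, stacked for each of the 6 libraries (x axis). The sum was 126 and 145 with siTAZ #1, mostly AREG, against 10.9 and 8.81 with siNTC and 18.5 and 32.8 with siTAZ #2.

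In control cells the order per kilobase was ERRFI1 (24.1 CPM per kilobase), EGFR (12.2), ERBB2 (10.5), EREG (3.93), HBEGF (2.75), AREG (2.72), NRG1 (0.469), ERBB3 (0.105) and TGFA (0.0129). EGFR lay just beyond the SD of ERBB2 (1.59), HBEGF and AREG lay within the SD of AREG (1.07), and EREG lay just beyond it. With the longest transcript as the length, ERBB2 came before EGFR and AREG before HBEGF. The place of AREG in these orders is also uncertain because of the reads shared with AREGB. With siTAZ #1, AREG came first at 102 ± 7.44 (SD, n = 2) and EREG second at 27.1 ± 5.31. EREG then lay within its spread of ERRFI1 at 24.9 ± 1.45. With siTAZ #2, AREG at 15.1 ± 9.51 came after ERRFI1 at 28.8 ± 0.306.

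EGFR, the receptor for most of these ligands, was lower with both siRNAs by a small amount. Its levels were 199.95 and 189 CPM with siNTC, 161 and 149 with siTAZ #1, and 139 and 147 with siTAZ #2. Both siNTC libraries lay above the other 4. EGFR fell by 0.33 on the log2 scale with siTAZ #1 (SE 0.08, FDR 0.0415), a call lost in 9 of the 18 alternatives, where the FDR reached 0.655 in the exact test on 4 libraries. With siTAZ #2 it fell by 0.44 (SE 0.08, FDR 0.0132), a call lost on leaving out either siNTC library or either siTAZ #2 library (highest FDR 0.0952). The difference between the siRNAs was 0.11 (95% interval -0.09 to 0.32, FDR 0.368). The 2 comparisons share the siNTC libraries.

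ERBB2, the co-receptor without a ligand of its own, fell with siTAZ #1. It was at 96.7 and 120.0 CPM with siNTC, at 66.9 and 55.3 with siTAZ #1, and at 97.4 and 96.3 with siTAZ #2. The siTAZ #1 libraries were lowest, and those of siTAZ #2 overlapped with siNTC. The fall with siTAZ #1 was 1.77-fold (log2 fold change -0.83, SE 0.14, FDR 0.0138), and the call was lost in the exact test (FDR 0.125) and without siNTC replicate 2 (FDR 0.0944). With siTAZ #2 the log2 fold change was -0.16 (95% interval -0.51 to 0.19, FDR 0.444). The difference between the siRNAs was -0.67 (SE 0.14, FDR 0.0201), and it was lost in 4 alternatives, namely the replicate block (FDR 0.0515), the exact test (FDR 0.204) and leaving out siTAZ #2 replicate 1 (FDR 0.0903) or 2 (FDR 0.0967).

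ERBB3, the NRG1 receptor with a weak kinase of its own, was near the limit of the counts, between 1.01 and 1.63 CPM in the 6 libraries (16 to 53 counts). Its groups overlapped in all 3 comparisons, and the 95% interval of the log2 fold change ran from -0.98 to 1.24 with siTAZ #1 and from -1.17 to 1.09 with siTAZ #2, so that the intervals include a doubling. ERRFI1 (also called MIG6) binds the EGFR kinase and is itself induced by EGF signalling. ERRFI1 was at 100.4 and 101 CPM with siNTC, at 99.6 and 108 with siTAZ #1, and at 119 and 121 with siTAZ #2. The siTAZ #2 libraries lay above the other 4, while siTAZ #1 and siNTC overlapped. Its log2 fold change was 0.04 with siTAZ #1 (95% interval -0.16 to 0.24, FDR 0.742) and 0.25 with siTAZ #2 (95% interval 0.05 to 0.45, FDR 0.0648), and 7 of the 18 alternatives placed the latter inside the threshold.

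**Figure D3:**
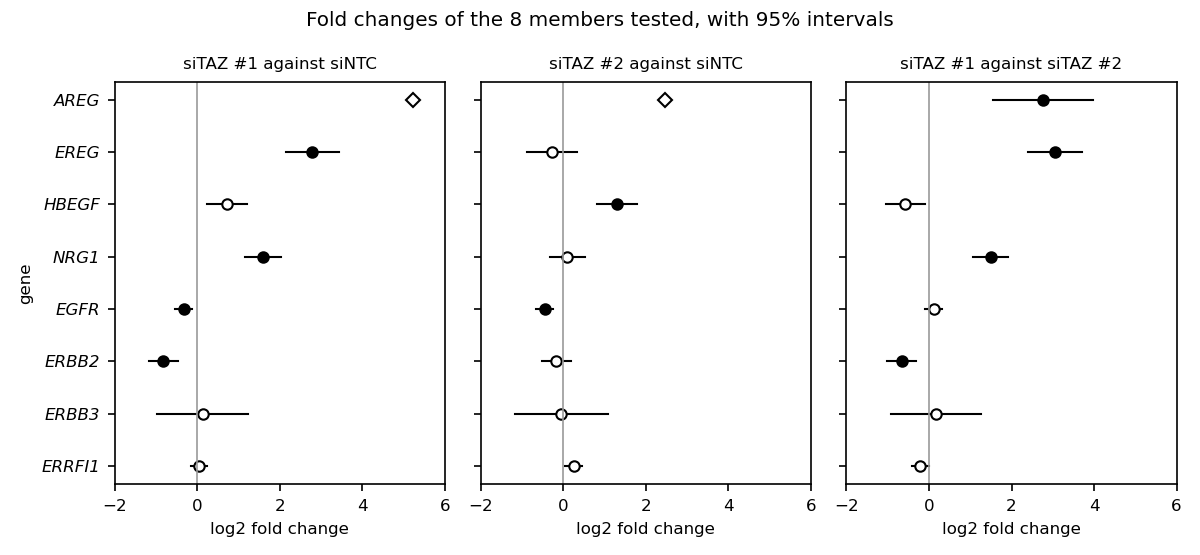
Log2 fold changes (x axis) of the 8 genes tested (y axis) in the 3 comparisons. Filled circles passed FDR 0.05 in edgeR, open circles did not, lines are 95% intervals, and the open diamonds mark AREG against siNTC, which was not tested. EREG and NRG1 lie to the right of 0 with siTAZ #1 and near 0 with siTAZ #2.

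Leaving AREG aside, 4 of the 7 members tested passed the threshold with siTAZ #1 (EREG and NRG1 higher, EGFR and ERBB2 lower), where 20.6% of all genes tested did. With siTAZ #2, HBEGF was higher and EGFR lower, 2 of 7, where 28.5% of all genes passed. Leaving out siNTC replicate 2 left 2 members past the threshold with siTAZ #1. With siTAZ #2, 1 was left without siNTC replicate 2 or either siTAZ #2 library, and 0 in edgeR without siNTC replicate 1 (2 at an unadjusted p under 0.05, and 2 in DESeq2 on all libraries). Between the siRNAs, 4 of 8 passed (AREG, EREG and NRG1 higher with siTAZ #1, ERBB2 lower), where 28.6% of all genes passed. AREG is included in that count, although its siTAZ counts entered the choice of the genes. Non-overlapping groups were frequent in the whole table, with 33.2% of genes above and 31.1% below both siNTC libraries in both siTAZ #1 libraries, 36% and 35.5% with siTAZ #2, and 32.6% above and 33% below between the siRNAs. The exact permutation test over 2 against 2 libraries cannot give a p under 0.333.

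Of the other genes of the family, EGF and ERBB4 passed the filter, and BTC, EPGN, NRG2, NRG3 and NRG4 did not. EGF was between 2.13 and 3.60 CPM and passed in no comparison. ERBB4, the other receptor for neuregulins, HB-EGF and epiregulin, was at 1.97 and 1.39 CPM with siNTC, at 2.19 and 2.48 with siTAZ #1, and at 0.467 and 0.121 with siTAZ #2. Its siTAZ #2 libraries were the lowest, with 10 and 2 counts. The mean count of ERBB4 over the 6 libraries was 30, so it was near the limit of the counts. ERBB4 fell by 2.43 on the log2 scale with siTAZ #2 (SE 0.62, FDR 0.0347), a call lost in 5 of 17 alternatives, among them leaving out siNTC replicate 1 (FDR 0.153), siNTC replicate 2 (FDR 0.0983) or siTAZ #2 replicate 2 (FDR 0.0949). The siRNAs differed by 2.91 (SE 0.61, FDR 0.0179), which was lost without siTAZ #2 replicate 2 (FDR 0.0611).

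The genes around these ligands and receptors were followed in 5 lists of 76 genes, of which 71 were tested. The lists were chosen with earlier results of these data known. Their counts beside the shares of all genes are therefore a description. The 7 other genes of the family, described above, are 1 of these lists. The next list holds 9 genes of ligand release. It includes TIMP3, an inhibitor, so its counts and medians mix genes of opposite effect. With siTAZ #1, 3 of them rose (ADAM10, RHBDF1 and TIMP3) and ADAM12 fell, where 10.8% of all genes rose and 9.78% fell. With siTAZ #2, ADAM17 and RHBDF1 rose, and ADAM12, ADAM15 and TIMP3 fell, where 14.1% rose and 14.4% fell. The median log2 fold changes of the list were 0.34 and 0.44, against 0.02 and 0.01 over all genes tested. On leaving out either siNTC library, 1 of these genes rose with each siRNA, and 1 in place of 3 fell with siTAZ #2. RHBDF1, which encodes the iRhom1 partner of ADAM17, was at 67.8 and 61.4 CPM with siNTC, 97.6 and 88.7 with siTAZ #1, and 118 and 131 with siTAZ #2. Its log2 fold changes were 0.53 (SE 0.11, FDR 0.0214) and 0.95 (SE 0.11, FDR 0.00264). The first call was lost in 4 alternatives, including those without siNTC replicate 1 (FDR 0.0973) or 2 (FDR 0.157). ADAM12, a metalloprotease reported to shed HB-EGF, was at 63.1 and 63.4 CPM with siNTC, 31.7 and 31.6 with siTAZ #1, and 38.9 and 40.0 with siTAZ #2. It fell by 1.00 (SE 0.11, FDR 0.00341) and 0.68 (SE 0.11, FDR 0.00727) on the log2 scale. The first call was lost in the exact test on 4 libraries (FDR 0.0692), and the second without siNTC replicate 1 or 2. TIMP3, an inhibitor of ADAM17, was chosen after its values were seen. It was at 347 and 340 CPM with siNTC, 910 and 864 with siTAZ #1, and 95.1 and 97.1 with siTAZ #2, so that siTAZ #1 and siTAZ #2 lay on opposite sides of the control. The difference between the siRNAs was 3.21 on the log2 scale (SE 0.08, FDR 0.000126).

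Of 25 adaptors and kinases downstream of the receptors, 5 rose and 3 fell with siTAZ #1, and 4 rose and 4 fell with siTAZ #2, where 10.8% of all genes rose and 9.78% fell with siTAZ #1 and 14.1% and 14.4% with siTAZ #2. With single libraries left out, the number that rose with siTAZ #1 went from 1 to 11, and the number that rose with siTAZ #2 was at most 1 without a siNTC or siTAZ #2 library. The number that fell went from 1 to 4 and from 2 to 5. Their median log2 fold changes were 0.24 and 0.04. HRAS, a RAS protein, rose with siTAZ #1 by 0.67 (SE 0.17, FDR 0.0391) and with siTAZ #2 by 0.77 (SE 0.17, FDR 0.0202), and each call was lost in 5 of the 18 alternatives, with FDRs of 0.192 and 0.123 without siNTC replicate 1 and a highest FDR of 0.396 for siTAZ #1 in the exact test. NRAS, another RAS gene, and MAPK3, which encodes the kinase ERK1, were chosen after their values were seen and lay on opposite sides of the control. NRAS was at 131 and 120 CPM with siNTC, 210.3 and 222 with siTAZ #1, and 49.8 and 44.1 with siTAZ #2. It rose by 0.78 on the log2 scale with siTAZ #1 (SE 0.10, FDR 0.00508). That call was lost in the exact test on 4 libraries (FDR 0.0909) and without siNTC replicate 2. NRAS fell by 1.42 with siTAZ #2 (SE 0.10, FDR 0.000756), and the siRNAs differed by 2.20 (SE 0.10, FDR 0.000504). MAPK3 fell by 1.06 with siTAZ #1 (SE 0.13, FDR 0.00448). That call was lost in the exact test on 4 libraries (FDR 0.0591) and without siNTC replicate 2. With siTAZ #2 MAPK3 rose by 0.49 (SE 0.12, FDR 0.0344), a call lost in 7 of the 18 alternatives, including those without any 1 of the siNTC and siTAZ #2 libraries (FDR up to 0.199). ARAF was at 64.2 CPM in siTAZ #1 replicate 1 and 0.429 in replicate 2, where its region was nearly missing.

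Genes that restrain the receptors or ERK were mostly higher with siTAZ #1 among those that passed. Of 19 such genes, 10 rose and 2 fell with siTAZ #1, where 10.8% of all genes rose and 9.78% fell, and their log2 fold changes had a median of 0.65. With siTAZ #2, 6 rose and 4 fell, where 14.1% of all genes rose and 14.4% fell, with a median of 0.17. Between the siRNAs, 9 were higher and 1 was lower with siTAZ #1, where 15.2% and 13.4% of all genes were. Leaving out siNTC replicate 1 left 3 that rose with siTAZ #1 and 3 with siTAZ #2. Leaving out siNTC replicate 2 left 4 and 2. The number that fell with siTAZ #2 was 2 or fewer without any 1 of the siNTC and siTAZ #2 libraries. The 9 that were higher between the siRNAs became 5 without either siTAZ #2 library and 2 in the exact test.
DUSP6, a phosphatase of ERK, was at 30.4 and 26.8 CPM with siNTC, 111 and 114 with siTAZ #1, and 62.7 and 70.4 with siTAZ #2. The 3 groups did not overlap. DUSP6 rose 3.95-fold with siTAZ #1 (log2 fold change 1.98, SE 0.12, FDR 0.000838) and 2.33-fold with siTAZ #2 (1.22, SE 0.11, FDR 0.00164), and the siRNAs differed by 0.76 (SE 0.11, FDR 0.00588). SPRY4, a Sprouty inhibitor of RAS and ERK signalling, rose 3.82-fold with siTAZ #1 (FDR 0.000841) and 2.90-fold with siTAZ #2 (FDR 0.000921). DUSP4, another ERK phosphatase, rose 5.74-fold (FDR 0.00176) and 2.70-fold (FDR 0.00595), the latter lost without siNTC replicate 1 (FDR 0.0524) or 2 (FDR 0.0571). DUSP5, a nuclear ERK phosphatase, moved the other way and fell by 1.02 (SE 0.13, FDR 0.00508) and 0.79 (SE 0.13, FDR 0.00754) on the log2 scale. Each DUSP5 call was lost in 2 of the 18 alternatives, among them the fit without siNTC replicate 1. The second was also lost without siTAZ #2 replicate 1. SPRY1, chosen after its values were seen, was at 5.90 and 9.40 CPM with siNTC, 30.9 and 28.2 with siTAZ #1, and 5.42 and 6.89 with siTAZ #2. The siTAZ #1 libraries stood above the other 4, and the siRNAs differed by 2.27 on the log2 scale (SE 0.28, FDR 0.00333).

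Of 16 transcripts that ERK signalling is known to induce, 12 rose and 0 fell with siTAZ #1 in edgeR's quasi-likelihood test (0 fell at an unadjusted p under 0.05 and 0 in DESeq2), and their median was 0.98 on the log2 scale. Over all genes, 10.8% rose and 9.78% fell. This list too was chosen with earlier results of these data known, so the comparison with all genes is a description. With siTAZ #2, 9 rose and 3 fell (FOSL1, MYC and PTGS2), with a median of 0.61, where 14.1% of all genes rose and 14.4% fell. The count with siTAZ #1 was 4 without siNTC replicate 1, 6 without siNTC replicate 2 and 7 in the exact test on 4 libraries, and the count with siTAZ #2 was 6 without either siNTC library or siTAZ #2 replicate 2. EGR1 and EGR2, early response transcription factors, and IER3, an early response gene, were named by rule. EGR1 was at 36.2 and 40.5 CPM with siNTC, 88.7 and 109 with siTAZ #1, and 89.6 and 89.8 with siTAZ #2. It rose 2.57-fold (FDR 0.00242) and 2.34-fold (FDR 0.00225). IER3 rose 2.76-fold (FDR 0.000904) and 2.49-fold (FDR 0.000811). EGR2 rose from 1.27 and 1.83 CPM with siNTC to 5.87 and 6.07 with siTAZ #1 (FDR 0.00746, and 0.0620 without siNTC replicate 1) and to 9.07 and 11.4 with siTAZ #2 (FDR 0.00207). PTGS2, the inducible cyclooxygenase, was chosen after its values were seen. It was at 3.87 and 6.44 CPM with siNTC, 18.0 and 23.0 with siTAZ #1, and 1.40 and 1.63 with siTAZ #2, and the siRNAs differed by 3.76 on the log2 scale (SE 0.33, FDR 0.00144). The transcripts of these lists answer to other signals as well, and receptor or ERK activity was not measured.

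**Figure D4:**
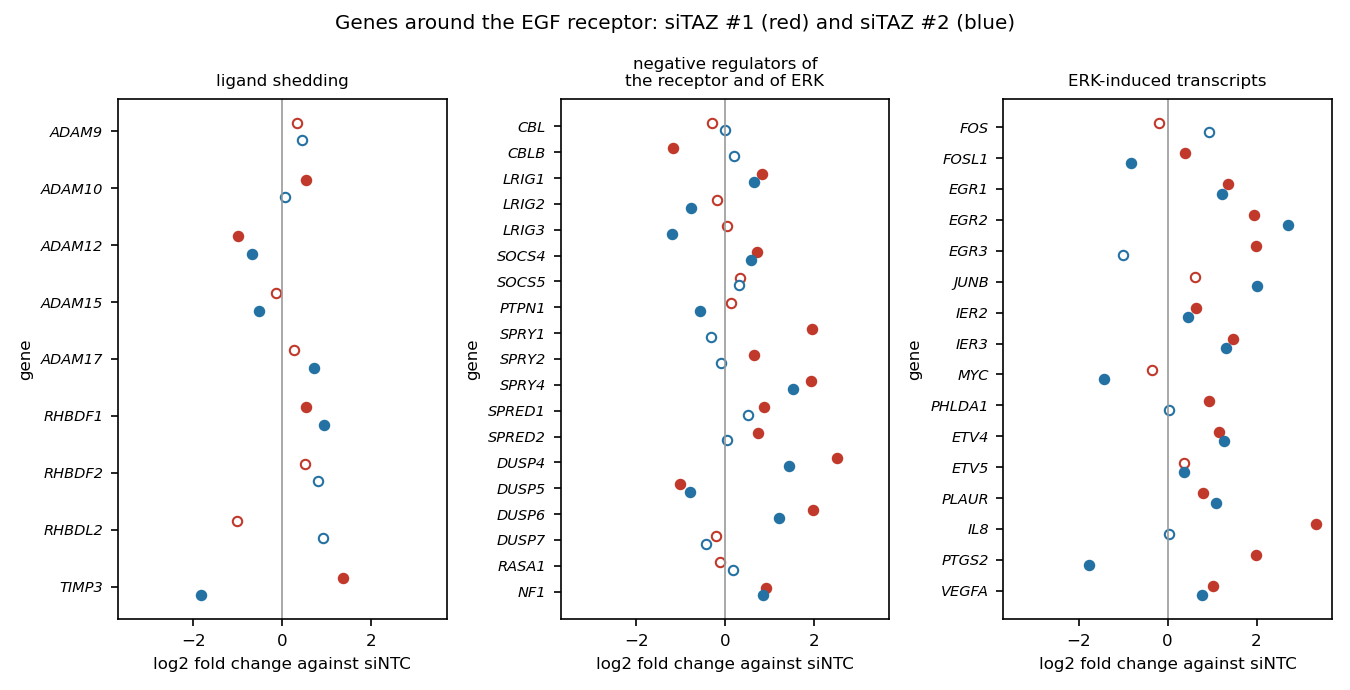
Log2 fold changes against siNTC (x axis) of the genes tested for ligand release, negative regulation and ERK-induced transcription (y axis), with siTAZ #1 in red and siTAZ #2 in blue. Filled points passed FDR 0.05 and open points did not. DUSP6, SPRY4, EGR1 and IER3 lie to the right of 0 with both siRNAs, and TIMP3 and PTGS2 lie on opposite sides of 0.

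The levels of 5 genes followed AREG most closely by the root mean square difference of log2 CPM, centred on the siNTC mean, over the 6 libraries. These were CD69 (0.377), SLC16A6 (0.387), STC1 (0.461), KCNA3 (1.00) and LOC729950 (1.03). STC1 was the most abundant of them, at 42.1 and 35.1 CPM with siNTC, 1504 and 1608 with siTAZ #1, and 252 and 326 with siTAZ #2. CD69 was listed at 0.190 and 0 CPM with siNTC and reached 7.33 with siTAZ #1, so that its fit rests on few control counts. The same holds for KCNA3, at 0.127 and 0.252 CPM with siNTC, and LOC729950, at 0.697 and 0.568. SLC16A6 was at 2.28 and 2.65 CPM with siNTC, 79.6 and 81.2 with siTAZ #1, and 10.05 and 16.5 with siTAZ #2. Of these 5 genes, 3 to 4 remained on leaving out a library. Among the members, EREG was closest to AREG at rank 153 (2.09), followed by NRG1 at rank 535 (2.52) and HBEGF at rank 1005 (2.73). These ranks are a description, since the members were chosen for the rise of AREG in these same libraries.

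**Figure D5:**
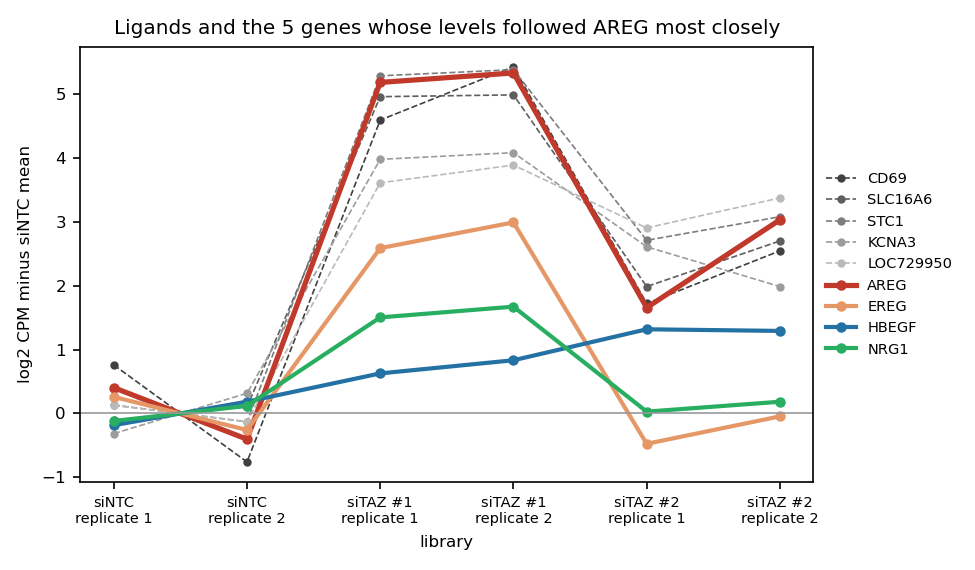
Log2 CPM minus the siNTC mean (y axis) in the 6 libraries (x axis) for 4 ligands (solid lines) and the 5 genes closest to AREG (dashed grey lines). Lines join the values of a gene and imply no order of the libraries. AREG reached 5.18 and 5.33 with siTAZ #1 and 1.66 and 3.03 with siTAZ #2, while EREG and NRG1 lay near 0 with siTAZ #2.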

How the data were processed

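Gene counts came from 6 libraries of HFL-1 cells. The authors mapped the Ion Proton reads with TMAP to hg19, obtained counts per gene with HTSeq 0.6.1, and deposited these raw counts without normalization. The strand setting, the counting mode and the treatment of reads with several matches are not given in the sources used here. Entries with a date in place of a symbol (13) were left out. Groups came from the sample titles.

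After filterByExpr and TMM normalization, all 6 libraries entered 1 fit, and edgeR 4.0.16 (R 4.3.3) gave quasi-likelihood tests of each siRNA against siNTC and against the other siRNA. FDR is the Benjamini-Hochberg adjusted p over 14053 genes, with a threshold of 0.05. SE was derived from the fold change and its F statistic. The scripts were tested on simulated data. Lengths came from GENCODE on GRCh37.

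The members, gene lists and tests were chosen with earlier results of these data known. Genes named from the lists were up to 3 raised and 3 lowered by both siRNAs with the largest mean change per list. Further genes were the targeted gene, YAP1, the family, copies of members and the 5 patterns closest to AREG. The 18 alternatives were DESeq2 1.42.0, the exact test, a fit of only the 4 libraries compared, scaling by RLE, by upper quartile or by library total, a mean count of at least 50 or any count as the filter, a replicate block, a fit without the stretch from RANGAP1 through chromosome Y, and leaving out each library. An offset for GC content and a crossed replicate block, also among the 18, were chosen after seeing the data. Calls were also counted at FDR 0.1.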

Additional observations from a re-analysis of the deposited data

Results flagged for a closer look

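The following genes, among those described above, were flagged because siTAZ #1 and siTAZ #2 differed in edgeR's quasi-likelihood test (FDR under 0.05). The 2 siRNAs target the same transcript and were tested against each other. The list is partial. Of the 71 pathway genes tested, 32 passed in this comparison, 24 higher and 8 lower with siTAZ #1. Those not listed include IL8 (log2 difference 3.32), EGR3 (2.99) and STAT3 (-1.57). WWTR1 itself was at 26.4 and 28.4 CPM with siTAZ #1 and at 46.1 and 43.1 with siTAZ #2, and differed by -0.70 on the log2 scale (SE 0.10, FDR 0.00499). The part of this difference in the results was not tested.

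Among the members, the log2 difference (siTAZ #1 minus siTAZ #2) was 2.76 for AREG, 3.06 for EREG, 1.49 for NRG1 and -0.67 for ERBB2. The siTAZ counts of AREG had entered the choice of the genes. ERBB4 differed by 2.91. Of the genes around the receptors, the difference was -0.42 for RHBDF1 (FDR 0.0322), 1.09 for DUSP4 (FDR 0.0126), 0.40 for SPRY4 (FDR 0.0465) and 0.76 for DUSP6. TIMP3 differed by 3.21, SPRY1 by 2.27, PTGS2 by 3.76, NRAS by 2.20 and MAPK3 by -1.55, and these 5 were chosen after their values were seen. The differences of SPRY4 and RHBDF1 were lost in 10 and 8 of the 18 alternatives, and those of DUSP4 and DUSP6 in 2 and 1. Over all genes tested, 28.6% differed between the siRNAs.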

How the results depend on the processing

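A library left alone in its group was assumed to vary like the others. Counts of calls moved more with single libraries than with scaling. Leaving out 1 library gave 556 to 5100 genes called with siTAZ #1 (2889 in the fit of 6 libraries), 1328 to 6042 with siTAZ #2 (4004) and 1797 to 5659 between the siRNAs (4020). Members called ranged from 2 to 5, 0 (in edgeR) to 3 and 3 to 5, and pathway genes from 13 to 46, 16 to 44 and 20 to 37, against 36, 36 and 32. The exact test called 911, 6422 and 1373 genes, 2 members with siTAZ #1, and 13 and 15 pathway genes with siTAZ #1 and between the siRNAs. The fit of 4 libraries called 6097 genes with siTAZ #2. The common dispersion was 0.0807 over 14053 genes and 0.0164 over the 13475 outside the nearly missing stretch. The fit without that stretch called 4111 genes with siTAZ #1, 5212 with siTAZ #2 and 5108 between the siRNAs. It called 5, 2 and 5 members. The shares of all genes given above come from the fit that includes the stretch.

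The correlation of same-numbered deviations was -0.01 for siNTC and siTAZ #1 and 0.02 for siNTC and siTAZ #2. For siTAZ #1 and siTAZ #2 it was -0.28 over 11530 genes. In that pair, libraries of opposite number tended to deviate together, and the cause was not tested. The replicate block called 1691, 2749 and 2869 genes and lost EGFR with siTAZ #1 and ERBB2 between the siRNAs. The crossed block called 2634, 3765 and 3893.

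Direction reversed only for values outside the threshold. On leaving out 1 library, the log2 fold change ranged from -0.0305 to 0.21 for NRG1 with siTAZ #2, from -0.25 to 0.40 for ERBB3 with siTAZ #1, from -0.29 to 0.22 for ERBB3 with siTAZ #2, from -0.0185 to 0.10 for ERRFI1 with siTAZ #1, and from -0.63 to 0.0424 for SPRY1 with siTAZ #2. Between the siRNAs, ERBB3 ranged from -0.21 to 0.44. ERBB3 with siTAZ #2 was 0.00329 with library totals and 0.0232 with the GC offset, against -0.04. The cause was not tested.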
